A study of Mus musculus with 44 samples.

Results

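The 859 regions described here are m6A peaks that the livers of mice exposed to PCB126 shared with those of mice exposed to Aroclor1260 plus PCB126, and, with input as reference, with no other treatment. They were chosen from the PCB126 peak list called against input. A peak entered when its span overlapped a peak of the combination list by 1 bp or more on the same chromosome and strand, and no peak of the Aroclor1260 or control list. Of the 2178 PCB126 peaks, 39.4% met this rule. They lay at 337 loci, 324 of them with a gene symbol, and formed 845 separate regions, since a few overlapped one another. The presence of a peak in these 4 input lists chose the members, so the values of those lists are given as a description with no test.

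All animals were male C57Bl/6J mice whose food drew 42% of its energy from fat. They were given PCB126, Aroclor1260 plus PCB126 (here the combination), Aroclor1260, or vehicle (here the control) by mouth at week 2 of a study of 12 weeks. No source used here gives the doses. Every treatment had 5 livers with an m6A immunoprecipitate and an input library each, and 1 pooled IgG immunoprecipitate, which made 44 libraries. The values analysed are 8 peak lists, 1 per treatment against input and 1 against IgG, each made for the whole treatment. The lists hold no value for a single animal, and the libraries of single animals were not analysed here. The values below therefore have no replicate error, no replicate was left out and no difference between treatments was tested.

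N6-methyladenosine (m6A) is the commonest internal mark of messenger RNA. A writer complex built around METTL3 and METTL14 places it, often in long internal exons and near stop codons. YTH proteins bind it and influence splicing, translation and decay of the transcript. In the assay used here, MeRIP, an antibody pulls down marked RNA fragments, and a peak is a stretch where they outnumber the fragments of a reference library. PCB126 acts like dioxin through the aryl hydrocarbon receptor. Aroclor1260 is an industrial blend of heavily chlorinated biphenyls.

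Sequence could be read where a member overlapped a RefSeq promoter window or a RefSeq microRNA of GRCm38.p6, which is the assembly behind the mm10 coordinates of the peaks. The stretches below lie inside 3 member peaks and are examples. Stretches of members at Pfkfb2, 2010320M18Rik, Trim25 and Sdc1 could be read too and are not shown. All are letters of the reference genome within a peak and do not show which fragments the antibody enriched. Capitals mark GGAC, the core of the usual m6A sequence context, searched on the RNA strand alone.
Cic, chromosome 7, 25270874 to 25271087, plus strand: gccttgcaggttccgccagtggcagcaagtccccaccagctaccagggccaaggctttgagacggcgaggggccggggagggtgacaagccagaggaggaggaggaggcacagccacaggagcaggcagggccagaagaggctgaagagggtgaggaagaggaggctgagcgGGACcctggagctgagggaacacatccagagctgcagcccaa
Eif5b, chromosome 1, 38032277 to 38032375, plus strand: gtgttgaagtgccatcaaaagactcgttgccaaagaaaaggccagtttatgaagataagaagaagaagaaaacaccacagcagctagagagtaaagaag
ENSMUSG00000079334, chromosome 9, 107580419 to 107580642, plus strand: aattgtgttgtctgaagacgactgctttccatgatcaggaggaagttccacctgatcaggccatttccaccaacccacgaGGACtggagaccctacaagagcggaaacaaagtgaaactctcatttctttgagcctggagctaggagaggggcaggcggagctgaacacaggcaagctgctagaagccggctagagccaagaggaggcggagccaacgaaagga

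The Cic stretch is the start of a member peak with a fold enrichment (the authors' ratio of m6A over input for that peak) of 16.6 after PCB126 and 14.8 after the combination, and its 214 bases hold 1 GGAC. The 99 bases at Eif5b, a translation factor gene, come from a member with folds of 4.09 and 3.91 and hold 0. The 224 bases of the unnamed identifier hold 1, in the longer form GGACT, in a member with folds of 2.67 and 3.06. Among all promoter windows, GGAC occurs in the first 214 bases of 52.7%, in the first 99 bases of 29.5% and in the first 224 bases of 54.2%. A match describes the stretch and identifies no methylated base.

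A member at Chpf2, which encodes a chondroitin polymerising factor, holds the whole hairpin of a microRNA. That peak, on chromosome 5 from 24592103 to 24592452 on the plus strand, had folds of 4.30 after PCB126 and 4.14 after the combination. The hairpin is shown first and its mature arms after it, with the seed, bases 2 to 8, in capitals in the arms.
miR-671 hairpin: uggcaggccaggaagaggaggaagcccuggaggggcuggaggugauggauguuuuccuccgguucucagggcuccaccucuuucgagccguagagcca
mmu-miR-671-5p: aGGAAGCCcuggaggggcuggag
mmu-miR-671-3p: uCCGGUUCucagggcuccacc
The hairpin takes up 98 bases of the peak and holds no GGAC. Whether the enriched fragments came from the Chpf2 transcript or from the microRNA precursor cannot be told apart in the list.

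The members were peaks of ordinary strength with a strong upper end. Their fold had a median of 2.43 after PCB126, with quartiles of 1.86 and 3.71, and ranged from 1.10 to 40.7. In the combination, the strongest overlapping peak had a median fold of 2.63, with quartiles of 2.00 and 3.63, and a range from 1.09 to 26.1. The median over all peaks was 2.45 in the PCB126 list and 2.40 in the combination list, so the members as a group sat near the middle of both lists. The PCB126 fold was at least 2 for 595 members and at least 5 for 109, or 69.3% and 12.7%, where all peaks of the PCB126 list gave 68.5% and 16.3%. It was at least 2 in both lists for 529 members, at least 5 for 73 members at 64 loci, and at least 10 for 11 members at 11 loci.

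The folds of a member in the 2 lists lay close to each other. They were within 1.5 times for 676 members, or 78.7%, with 424 higher after PCB126, 427 higher after the combination and 8 equal. Across the 859 members the folds had a Spearman coefficient of 0.69, and their log2 values a Pearson coefficient of 0.76. The points share the caller and the transcript, and neighbouring peaks are not independent, so this is a description. The exonic bases were identical for 144 members, and the median member shared 61.6% of the joint exonic bases with its counterpart.

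**Figure D1:**
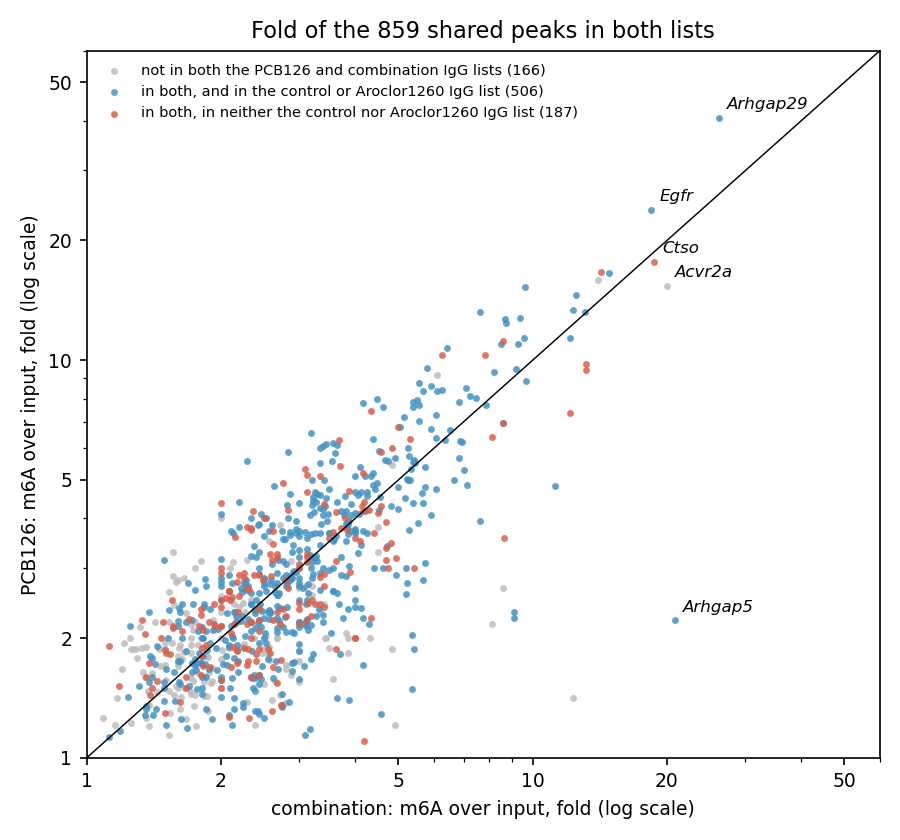
Fold enrichment of the 859 shared peaks, with the PCB126 fold on the vertical axis and that of the strongest overlapping combination peak on the horizontal axis, both on log scales. Points are peaks, coloured by where they were found with IgG as reference, and lie along the line of equality up to Arhgap29 at 40.7 and 26.1, with Arhgap5 at 2.22 and 20.8 far below it.

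The widest departures among members with a fold of at least 2 in both lists were of both kinds. A peak at Fzd8, a Wnt receptor gene, had 5.57 after PCB126 and 2.29 after the combination. A further peak of Egfr had 4.37 after PCB126 and 2.00 after the combination, and a peak of Msl2 had 5.86 and 2.83 in the same order. In the opposite direction, a peak of Arhgap5 had 2.22 after PCB126 and 20.8 after the combination. Overlapping peaks of B3galt1, a galactosyltransferase gene, had 2.25 and 2.33 after PCB126 and 9.06 after the combination. With IgG as reference the B3galt1 direction was reversed, with 29.6 for both peaks after PCB126 and 2.5 and 16.6 after the combination. The Arhgap5 peak had IgG folds of 4 after PCB126, 6 after the combination and 12.2 in the control. The peaks of Fzd8, Egfr and Msl2 were higher after PCB126 with either reference. With 1 value per treatment these departures have no error.

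The leading loci were ranked by the lower of the 2 folds. Arhgap29, which encodes a GTPase-activating protein, came first with 40.7 after PCB126 and 26.1 after the combination, over the same 798 exonic bases on chromosome 3 from 122012137 to 122014861. Egfr, the receptor of epidermal growth factor, followed with 23.9 and 18.4 on chromosome 11 from 16908973 to 16912870, a peak of 1698 bases in 5 exonic blocks. Ctso, the gene of the lysosomal protease cathepsin O, had 17.7 after PCB126 and 18.7 after the combination. Acvr2a, a receptor of activins, had 15.4 and 20 in that order.

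Those 4 loci had no peak in the Aroclor1260 or control list against input, and the lists called against IgG divided them. The IgG folds of Arhgap29 were 38.5 after PCB126, 63.6 after the combination and 20 after Aroclor1260, with no peak in the control list. For Egfr they were 51.8, 34.0 and 11.1 in the same order, again with no control peak. Ctso had 12.5 after PCB126 and 33.6 after the combination, and was listed in neither the Aroclor1260 nor the control list. The Acvr2a peak went the other way, with 27.6 after the combination and 15 in the control and no peak in the PCB126 list.

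Cic, the capicua repressor of growth factor response genes, had the widest member of all, 2749 bases on chromosome 7 from 25270874 to 25273622. Tmem28 had 16.7 after PCB126 and 14.2 after the combination, and Wac had 15.9 and 14.0. Irf2bp1, a corepressor gene, had 13.2 and 13.1. Noct, a circadian phosphatase gene also called nocturnin, had 11.4 and 9.58, and Kank1, a regulator of the actin skeleton, had 12.8 and 9.35. B230219D22Rik, with 13.4 and 12.3, and the anchoring protein gene Pakap, with 9.78 and 13.2, were also among the leading loci. With IgG as reference, the Cic peak had 23.0 after PCB126, 19.4 after the combination and 11.4 after Aroclor1260, and none in the control. Irf2bp1 had 14.7, 22.4, 9.40 and 9.60 with the control last, and Kank1 had 31.0, 30.2, 11.8 and 6.30 in the same order. Noct had 20.1 after PCB126, 18.4 after the combination, no Aroclor1260 peak and 6.05 in the control. Among the 14 leading loci shown, the peaks of Ctso, Tmem28 and Pakap were in neither the Aroclor1260 nor the control list with either reference, and Wac was likewise absent from both but was found in the PCB126 list alone against IgG, at 29.8.

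**Figure D2:**
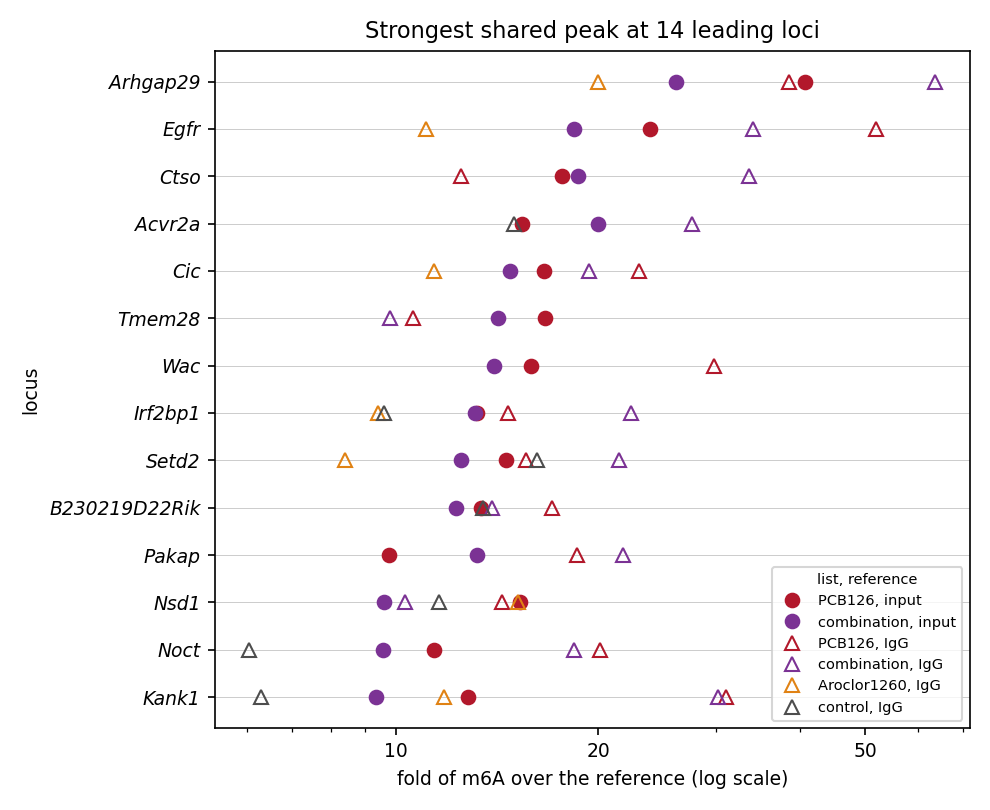
Fold of the strongest shared peak at 14 leading loci on a log axis, with filled circles for m6A over input and open triangles for m6A over IgG, coloured by treatment. A missing triangle means that no peak of that list overlapped. Arhgap29, Egfr, Ctso, Cic, Tmem28, Wac and Pakap have no control triangle.

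Chromatin genes, among them writers of histone marks, held some of the strongest members. Of 13 genes of the chromatin and transcription list with a PCB126 peak, 7 had a member, where 48.9% of all named loci of the PCB126 list had one, so the count is near the background. Among named loci found in at least 1 of the 8 lists, 23.7% had a member. None of the 7 had an Aroclor1260 or control peak against input, where 242 of all 337 member loci had none. The rule used these lists, so this is a description. Setd2, a histone H3 methyltransferase, had 8 members, the strongest with 14.6 after PCB126 and 12.5 after the combination on chromosome 9 from 110573691 to 110577136. Nsd1, another enzyme of that kind, had 5 members, led by 15.3 and 9.60. Ash1l had 7 members led by 12.4 and 8.73, and Setd1b had 7 led by 3.42 and 4.13.

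The other chromatin genes were Cic, Arid1b and Smarca2. Arid1b, a subunit of the SWI/SNF remodeller, had 3 members led by 4.92 after PCB126 and 4.47 after the combination. Smarca2, an ATPase of the same remodeller, had 8 members, the strongest with 3.87 and 2.44. With IgG as reference, Setd2, Nsd1, Ash1l, Setd1b and Arid1b all had control peaks, 11, 8, 10, 11 and 8 in number, and Smarca2 had 13. The Setd2 peak named above had an IgG fold of 15.6 after PCB126, 21.5 after the combination, 8.40 after Aroclor1260 and 16.2 in the control. The control was thus without this peak against input and had it against IgG.

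Of 7 genes of growth factor and cytokine signalling with a PCB126 peak, 4 had a member, near the 48.9% of all named PCB126 loci. Besides Egfr these were receptor subunits. Il6st, the shared signalling subunit gp130 of the interleukin-6 family, had 3 members led by 11 after PCB126 and 8.50 after the combination. Il1rap, the accessory subunit of the interleukin-1 receptor, had 2 led by 6.40 and 8.11, and no Aroclor1260 or control peak with either reference. Il1r1, the ligand-binding subunit, had 1 with 2.40 and 3.40, whose IgG folds were 19.8 after PCB126 and 11.7 after the combination. Another peak of Il1r1 was in the control list against input. Il6st, in contrast, had 9 control peaks against IgG.

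Among hepatocyte transcription factors, 4 of 7 genes with a PCB126 peak had a member, again near 48.9%. Hnf4a, a master regulator of hepatocyte genes, had 4 members led by 5.68 after PCB126 and 4.90 after the combination, over 2091 exonic bases. Rxra, the partner of many nuclear receptors, had 7, of which the leading one had 5.02 and 5.22. Onecut2 had 2 members led by 3.50 and 2.56, beside 6 other control peaks against input. Foxo1, the insulin-restrained factor, had 1 with 1.5 and 1.67, beside 4 Aroclor1260 and 4 control peaks against input. No Foxo1 member remained at a fold of at least 2 or at a false discovery rate of at most 0.01. Of 6 immediate early genes with a PCB126 peak, 1 had a member, against 48.9% of all named PCB126 loci, a count too small to read. This was Jun, with 6.00 after PCB126 and 4.83 after the combination on the minus strand of chromosome 4. It was in neither the Aroclor1260 nor the control list with either reference.

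Of the genes with a PCB126 peak, 2 of 3 in the lipogenesis list had a member, 2 of 3 in the list of PPAR and fatty acid oxidation, 1 of 1 for bile, 1 of 3 for glucose and 1 of 4 for glutathione, beside the same background of 48.9%. Lpin2, a phosphatidate phosphatase of fat synthesis, had 8 members, the strongest with 7.94 after PCB126 and 5.49 after the combination. Acsl1, which activates long-chain fatty acids, had 2 led by 1.70 and 2.47. Pparg, the receptor that drives fat cell genes, had 2, the higher with 1.86 and 3.00. With IgG as reference Pparg had 4 PCB126 peaks and 0 in the other 3 lists, the combination included, and no member remained at a fold of at least 2. Slc27a2, a fatty acid transporter, had 2 led by 1.55 and 1.49. Abcb4, which exports phospholipid into bile, had 5, led by 3.67 and 2.13. Txnip, an inhibitor of thioredoxin, had 2 with a highest fold of 2.50 after PCB126 and 3.00 after the combination. Gsta3, a glutathione transferase, had 1 with 1.44 and 2.72. Against input, other peaks were listed for Aroclor1260 and control at Slc27a2, 1 and 4 in number, and at Acsl1, 2 and 4. Abcb4 had 2 and 0, and Txnip 1 and 0. Lpin2 had 9 peaks in the control list against IgG.

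Of 13 genes of secreted plasma proteins with a PCB126 peak, 8 had a member, mostly with low folds, against 48.9% of all named PCB126 loci. Serpina3k had 2 members led by 4.40 after PCB126 and 3.65 after the combination, and Fgb, the fibrinogen beta chain, had 2 led by 4.10 and 2.46. The best members of Hp, F5, F10, Mug1, Cp and Kng1 ranged from 1.14 to 2.2 after PCB126 and from 1.40 to 3.87 after the combination. Hp, F5, F10, Cp and Kng1 also had other peaks in the Aroclor1260 or control list against input. Serpina3k and Mug1 belong to families of near-identical genes, so their counts are uncertain.

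The 4 genes of the unfolded protein response list with a PCB126 peak each had a member, against 48.9% of all named PCB126 loci, a count too small to read. Xbp1, a transcription factor of that response, had 2.86 after PCB126 and 2.85 after the combination. Atf4 had 2.38 and 1.61, Herpud1 2 members led by 2.16 and 3.19, and the chaperone gene Hspa5 1.31 and 1.87, beside 1 Aroclor1260 and 3 control peaks against input. The strongest member of each gene overlapped a control peak called against IgG. Of 7 ubiquitin ligase genes with a PCB126 peak, 5 had a member, against the same 48.9%. Rnf43, which removes Wnt receptors, had 2 led by 8.37 and 5.67, and Trim8 had 3.58 and 8.62. Trim25, Klhl21 and Gid8 had folds from 1.26 to 2.00 after PCB126, and each also had other Aroclor1260 or control peaks against input. The Klhl21 peak lay on the strand opposite to that gene.

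Of the m6A machinery, 2 of 3 genes with a PCB126 peak had a member, against 48.9% of all named PCB126 loci. This count and those of the Argonaute and cell death lists below are too small to read. Ythdc1, the nuclear reader, had 4 members led by 2.75 after PCB126 and 2.67 after the combination. Ythdf3, a cytoplasmic reader, had 1 with 3.14 and 2.29, beside 2 control peaks against input. Of 3 genes of the Argonaute and mRNA decay list with a PCB126 peak, 1 had a member. It was Tnrc6c, a scaffold of the silencing complex that binds Argonaute. Fas, a death receptor and 1 of 2 genes of the cell death list with a PCB126 peak, had 1 member with 2.29 and 3.38. No gene of the aryl hydrocarbon receptor list had a PCB126 peak against input, but 5 of its 13 genes lie on the plus strand, which held 94.6% of all PCB126 peaks, and 1 had a peak in any list. None of the 37 markers of Kupffer, endothelial, stellate, bile duct, lymphoid and neutrophil cells had a member, and 1 of them had a PCB126 peak against input. Of these 37, 11 lie on the plus strand, so few of them could be seen in lists made almost wholly of plus-strand peaks. Of 10 hepatocyte markers, 6 of them on the plus strand, 2 had a PCB126 peak and 0 had a member. The absence of these genes is thus no measure of their cells.

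At many loci the members came in runs. A locus had 1 member in 133 cases, and 5 or more in 47 cases, which held 319 members, or 37.1%. Zfhx3, a homeobox transcription factor gene, had most, with 16, followed by Srrm2 of the spliceosome with 11, the scaffold gene Akap9 and the nuclear pore gene Tpr with 10 each, and Ahnak and Apc with 9 each. Their leading members were modest, with 5.20 after PCB126 and 4.17 after the combination at Zfhx3, 4.09 and 3.16 at Srrm2, 3.92 and 3.85 at Tpr, 4.29 and 4.57 at Ahnak and 3.67 and 3.50 at Apc. Akap9 was higher, with 10.7 and 6.43. Of these 47 loci, 43 had 0 peaks of either Aroclor1260 or control against input. The same held for 242 of all 337 member loci and 400 of all 691 loci of the PCB126 list. The rule used these lists, so the counts are a description. The exceptions among the 47 were Abcb4, Fmo5, Golgb1 and Son. Of these, Fmo5, Golgb1 and Son fall outside the rule for named genes and were picked after their values were seen.

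The lists called against IgG varied among the 47. In the Aroclor1260 IgG list, 14 loci had 0 peaks, 6 had 1 to 4, and 27 had 5 or more. In the control IgG list the numbers were 11, 5 and 31. The PCB126 IgG list had 5 or more peaks at 45 of the 47 loci, and the combination IgG list at 43. Smarca2 had 0 Aroclor1260 and 13 control peaks against IgG, and Zfhx3 had 0 and 12, whereas Akap9 had 12 and 17. At Ahnak, Arhgef5, Baz1b, Chpf2, Pakap, Tnrc6c and Zfp646, with 48 members among them, no peak was listed for Aroclor1260 or control with either reference. The same held for 66 of all 337 member loci. Arhgef5, Baz1b, Chpf2 and Zfp646 were picked after their values were seen. A peak list does not separate a transcript without m6A from one with too few reads to be called, and this was not tested.

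Tnrc6c shows the pattern in full. Its peak number was 10 after PCB126, 8 after the combination, 0 after Aroclor1260 and 0 in the control against input, and 9, 10, 0 and 0 against IgG. Its highest member, on chromosome 11 from 117721333 to 117721833, had 7.35 after PCB126 and 12.1 after the combination, and IgG folds of 15.8 and 12.1. Pakap had 12, 13, 0 and 0 peaks against input and 11, 13, 0 and 0 against IgG. Its strongest peak carried 2 overlapping identifiers and was listed for each. Ahnak, which encodes a giant scaffold protein, had 12, 15, 0 and 0 against input and 14, 13, 0 and 0 against IgG. At Chpf2 the numbers were 8, 8, 0 and 0 and 8, 7, 0 and 0, with 2 of the 8 PCB126 peaks on the opposite strand.

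**Figure D3:**
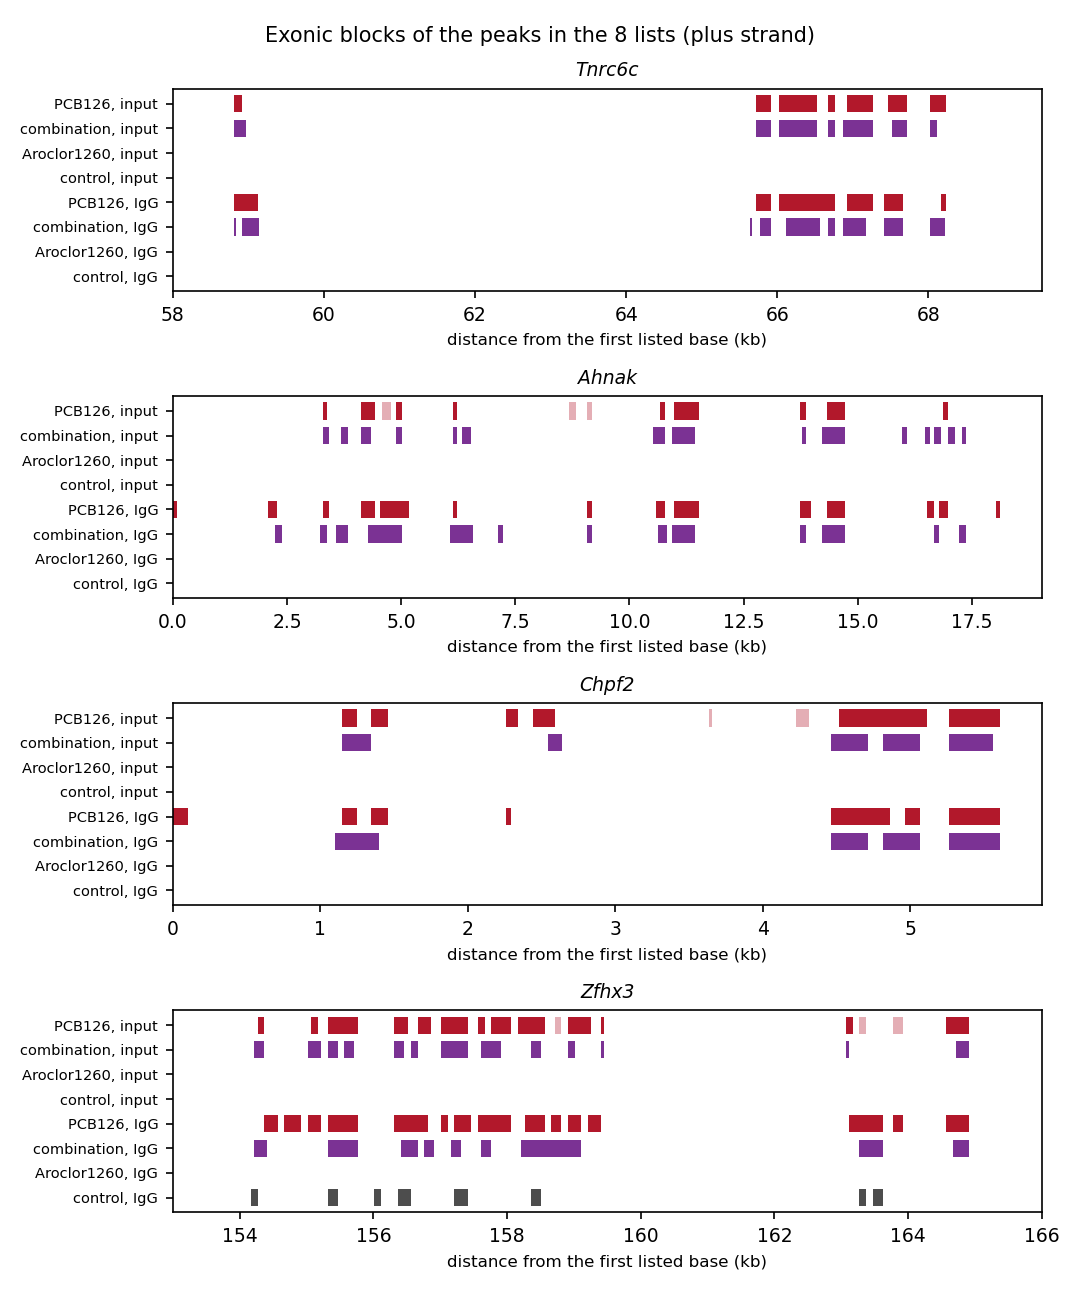
Exonic blocks of the plus-strand peaks at 4 loci in the 8 lists, with distance in kb from the first listed base on the horizontal axis. The minus-strand peaks of Chpf2, 2 after PCB126 and 3 after the combination against input, are not drawn. Tnrc6c and Zfhx3 are shown over their densest parts, and pale PCB126 input blocks are peaks that are not members. The Aroclor1260 rows are empty at all 4 loci, and the control rows are empty except against IgG at Zfhx3.

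Over all members, 702 of 859, or 81.7%, lay at a locus with no Aroclor1260 or control peak against input. The share was 61.9% over all PCB126 peaks and 85.2% for the 759 PCB126 peaks found in no other input list. These shares come from the lists that chose the peaks, so they are a description and nothing is read from them. When both references were counted, 145 members at 66 loci remained, or 16.9%, against 48.7% of the peaks found in no other input list and 23.6% of all PCB126 peaks.

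The lists called against IgG were not used by the rule, though they come from the same m6A libraries. Of the members, 92.0% were found in the PCB126 IgG list and 86.3% in the combination IgG list, where all PCB126 peaks gave 87.9% and 73.2%. Both lists held 693 members, or 80.7% (Wilson 95% interval 77.9 to 83.2%), against 38.7% of the peaks found in no other input list, 98.0% of the 245 found in all 4 input lists and 68.7% of all PCB126 peaks. The difference from the first was 41.9 percentage points (95% interval 37.5 to 46.2). Members had to have a combination peak against input and the first class had to lack one. The combination IgG list comes from the same m6A libraries, so a gap of this kind was largely set by the rule and nothing is read from it. All intervals of shares cover counting error only, since animals are not represented and neighbouring peaks share a transcript.

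The IgG lists of the other treatments held many members too. The Aroclor1260 IgG list held 393, or 45.8%, and the control IgG list held 471, or 54.8%, against 44.1% and 50.9% of all PCB126 peaks. At least 1 of these lists held 590, or 68.7% (65.5 to 71.7%), against 28.5% (25.4 to 31.8%) of the peaks found in no other input list and 61.1% of all PCB126 peaks. The difference from the peaks in no other list was 40.2 points (35.6 to 44.5). The label of peaks found after PCB126 and the combination alone thus applies to the input lists. With IgG as reference, 68.7% of the members overlapped an Aroclor1260 or control peak, near the 61.1% of all PCB126 peaks. The Aroclor1260 and control lists held 2082 and 2091 peaks against IgG, and 506 and 620 against input. The reference and the length of the lists cannot be told apart here.

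Members found in all 4 IgG lists numbered 255. Their median fold over IgG was 5.57 in the PCB126 list, 4.40 in the combination list, 3.40 in the Aroclor1260 list and 3.34 in the control list. The quartiles were 3.10 and 8.40, 2.87 and 6.5, 2.31 and 4.65, and 2.19 and 5.4 in that order. The lists were called separately with 1 pooled IgG library each, and the medians over whole lists were 3.30, 3.20, 2.62 and 2.70. The rule asked for PCB126 and combination peaks and for no Aroclor1260 or control peak against input, from the same m6A libraries. It thus favours this order, so the values are given side by side with no test.

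**Figure D4:**
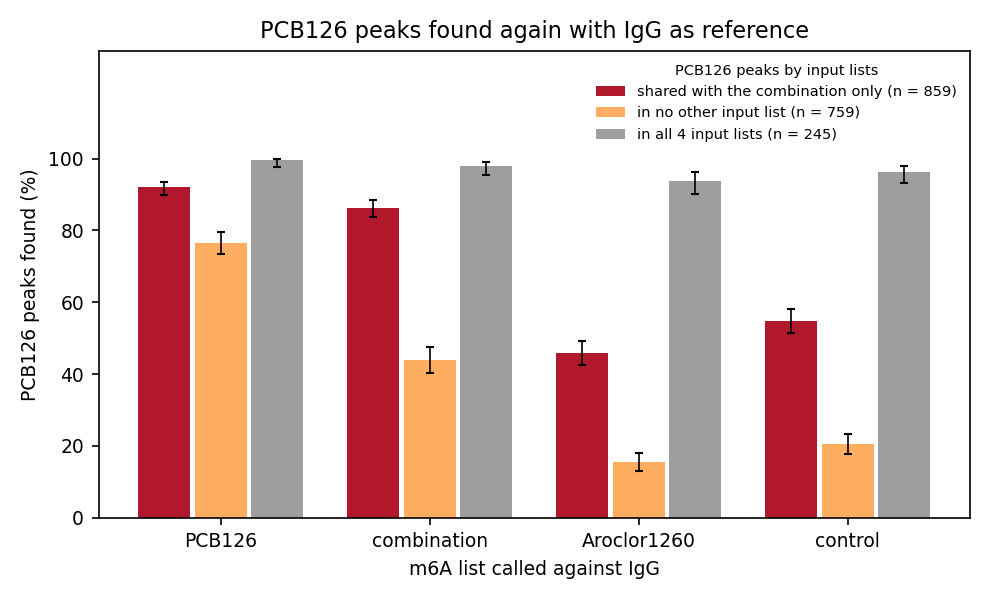
Share of PCB126 input peaks that overlapped a peak of each list called against IgG, for peaks shared with the combination only, peaks in no other input list and peaks in all 4 input lists, with Wilson 95% intervals as bars. Red bars stand at 92.0%, 86.3%, 45.8% and 54.8% from left to right.

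Both requirements together, presence in the PCB126 and combination IgG lists and absence from the Aroclor1260 and control IgG lists, left 187 members at 112 loci, or 21.8% (19.1 to 24.7%). Over all PCB126 peaks the share was 17.3%, and over peaks in no other input list it was 22.0%, a difference of -0.233 points (-4.29 to 3.79). These 187 had a median fold of 2.50 after PCB126 and 2.57 after the combination. Besides Ctso, Tmem28, Jun, Trim8 and all 8 members each of Tnrc6c and Pakap, they held the mitochondrial mt-Rnr2 and ND6. The mitochondrial peaks had 3.92 and 3.37 after PCB126, and 4.70 each after the combination. Both were picked after their values were seen.

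The input lists differed in length. The PCB126 and combination lists held 2178 and 2284 peaks against input, and the Aroclor1260 and control lists 506 and 620. When every input list was reduced to the 506 peaks with the lowest false discovery rate, ties being broken by fold, 114 of 506 PCB126 peaks, or 22.5%, met the rule, and 12 of these also met both IgG requirements. In that setting 54 of the 68 named loci had 0 members, among them Arhgap29, Egfr, Ctso, Acvr2a, Cic, Setd2, Nsd1, Pakap, Tnrc6c, Ahnak and Zfhx3, while Noct kept 2 and Kank1 4. The setting adds no Aroclor1260 or control peak. Members were therefore lost only because PCB126 or combination peaks were cut, and these losses say nothing on presence in the other 2 treatments. When the rule was applied to the 4 IgG lists, 803 peaks met it, and 186 of the 859 members overlapped one of them. How deeply the libraries were sequenced is unknown.

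The members were of middle width. Their median exonic width was 244 bp, against 150 bp for peaks in no other input list and 500 bp for peaks in all 4. Besides Cic, the widest members were of Numa1 with 2341 bases, the tight junction gene Cldn2 with 2234, Srrm2 with 2197 and the Golgi protein gene Gcc2 with 2146. Their folds after PCB126 were 4.18, 4.80, 4.09 and 5.50, and those after the combination 3.81, 4.98, 3.16 and 3.33. Width follows from the same calls as the rule, so no test is given. Blocks of more than 1 exon made up 27.2% (24.4 to 30.3%), against 24.4% and 32.7%. The plus strand held 95.9% of the members, and 15 of the 35 on the minus strand lay opposite to the named gene, so those names state a place.

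Along the gene, 622 members had a named gene with known strand that matched their own. Their median position was 0.78 of the gene span, where 0 is the 5′ end and 1 the 3′ end, against 0.77 and 0.80 for peaks in no other list and in all 4. The stretch from 0.8 to 1 held 47.7% (43.8 to 51.7%) of them, against 45.9% and 50%, with differences of 1.87 points (-3.76 to 7.48) and -2.25 points (-10.6 to 6.12). The span counts introns, and the tables used hold no exon or UTR limits, so exonic class is not given.

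**Figure D5:**
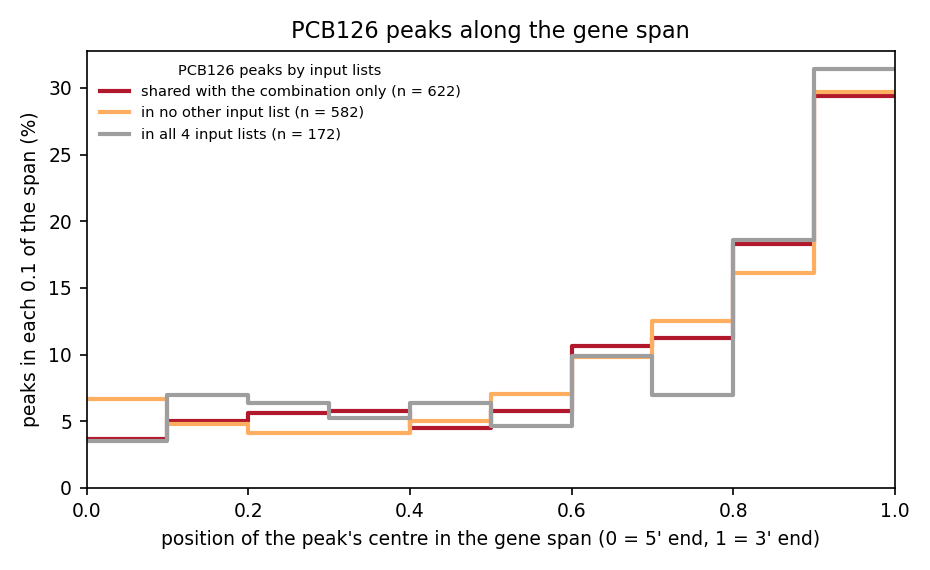
Share of PCB126 peaks whose centre lay in each 0.1 of the gene span, from the 5′ end at 0 to the 3′ end at 1, for the same 3 classes of peaks. All 3 lines climb to their highest value in the last bin.

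Promoters of the member genes were searched for GCGTG, the core of the element that the aryl hydrocarbon receptor binds, on both strands of the RefSeq window from 250 bases before to 50 after the start. Of the 244 named loci with a window, 50% (43.8 to 56.2%) held it, against 50.4% (44.6 to 56.1%) of the 282 PCB126 loci without a member, and 38.4% of protein-coding genes and 32.5% of all genes in the table. The longer TNGCGTG, which contains it, was in 9.84% (6.70 to 14.2%), 6.74% (4.36 to 10.3%), 6.07% and 5.12% in the same order. The windows of Arhgap29 and Tmem28 are shown because they lead the members and hold 4 and 2 copies, in capitals with either strand's letters, GCGTG or CACGC.
Arhgap29, chromosome 3, 121952979 to 121953278, plus strand: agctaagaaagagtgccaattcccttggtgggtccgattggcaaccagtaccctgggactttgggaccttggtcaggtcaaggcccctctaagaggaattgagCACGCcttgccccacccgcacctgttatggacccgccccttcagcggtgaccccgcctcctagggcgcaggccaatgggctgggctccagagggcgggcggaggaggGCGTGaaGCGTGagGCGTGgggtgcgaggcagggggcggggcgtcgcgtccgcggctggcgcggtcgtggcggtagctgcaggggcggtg
Tmem28, chromosome X, 99819914 to 99820213, plus strand: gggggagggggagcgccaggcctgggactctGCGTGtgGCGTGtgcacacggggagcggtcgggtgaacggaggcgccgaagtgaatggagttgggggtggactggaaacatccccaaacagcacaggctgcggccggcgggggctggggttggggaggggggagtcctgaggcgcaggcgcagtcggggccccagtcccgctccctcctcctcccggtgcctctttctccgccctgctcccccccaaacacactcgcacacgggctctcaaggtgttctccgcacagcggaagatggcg
The windows of Egfr, Cic, Irf2bp1, Noct and Kank1 held 0 copies. A match is a run of letters and no evidence of binding.

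At the limits of the rule, the member with the smallest overlap was at Rrs1, on chromosome 1 from 9546556 to 9546656, which shared 1 base of its span with a combination peak. It had folds of 2.00 after PCB126 and 2.33 after the combination. Just outside was a peak of Pakap with a fold of 2.2, 48 bp from the nearest combination peak. On the other side, the Trim25 member, with 1.26 and 2.31, lay 49 bp from a control or Aroclor1260 peak. A peak of Abcb4 with 3.58 and 2.39 was left out because it shared 1 base with such a peak. In all, 22 members lay within 100 bp of a control or Aroclor1260 peak, and 79 within 1000 bp.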

How the data were processed

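m6A peaks were analysed from the livers of 4 groups of 5 mice. The submitters' processing notes name the build mm10 and, among others, BWA 0.7.17, Trimmomatic, FastQC 0.10.1 and bcl2fastq 2.20.0.422. The deposited lists are titled as MeTPeak output, but no source used here gives that caller's version, settings or annotation. Per the file headers, each peak has the authors' fold enrichment (a linear ratio), p-value, and log10 of the p-value and of the false discovery rate. Depth is unknown.

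Overlaps were computed in Python 3.11.15 with pandas 2.3.3, checked with bedtools 2.31.1 (859 members) and tested on simulated data (2000 of 2000 peaks classed correctly). Ensembl identifiers were named by position in the RefSeq table of GRCm38.p6. Each identifier was assigned the gene spanning 80% or more of its exonic bases in peaks, of several the gene on its strand and then the only protein-coding one, which named 1452 of 1512. Identifiers with the same name form 1 locus. Intervals are 95% Wilson intervals, or Newcombe intervals for differences (statsmodels 0.14.6). Coordinates count from 1.

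Named genes were the 15 loci with the highest lower fold (1 of them is not reported here), the 8 with most members, members of 16 gene lists and 7 marker lists, the 5 widest peaks, 3 extremes of the fold ratio each way and peaks at the rule's limits. Members and lists were chosen with earlier results of these data known.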

Additional observations from a re-analysis of the deposited data

How the results depend on the processing

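The number of members was 859 and stayed within 1.5 times of that with a reciprocal overlap of 50% (659), exonic blocks (859), a fold of at least 2 (604), a false discovery rate of at most 0.01 (842), the plus strand alone (824), the IgG lists (803) and members taken from the combination list (916). The 803 came from 4129 PCB126 peaks called against IgG. Only 186 of the 859 members overlapped one of the 803, so the near number stands for largely other peaks. With 506 peaks per input list the number of members was 114, or 22.5% of the list, against 39.4% of the full list. A lower number is bound to come with shorter lists. Whether the lower share came from their length or from the ranking by false discovery rate was not tested. In that setting 83.3% of members were in both IgG lists, 84.2% in the control or Aroclor1260 IgG list, 78.1% at loci without an Aroclor1260 or control input peak and 57.0% beyond 0.8 of the gene span. Members that met both IgG requirements then numbered 12, and the median folds were 2.00 after PCB126 and 2.40 after the combination. Reciprocal overlap gave 30.3% of PCB126 peaks as members, with shares of 54.6%, 55.1% and 71.6% in the first 3 of these measures and a median PCB126 fold of 2.67. That setting also asked for 50% in each overlap with an IgG peak and with an excluding Aroclor1260 or control peak. Presence in an IgG list was thus harder to meet and exclusion looser, so these shares are not like for like with those reported. A fold of at least 2 gave 90.2% in both IgG lists and medians of 3.12 and 3.18. Exonic blocks, the stricter false discovery rate and the plus strand alone left these shares inside their intervals. The promoter share moved from 50% for GCGTG to 9.84% for the longer TNGCGTG, which is contained in fewer windows by construction. Of 68 named loci, 54 had 0 members with equal lists, 9 with a fold of at least 2, 7 with reciprocal overlap, 4 with the plus strand alone and 1 with the stricter false discovery rate. Counting these, 60, 36, 33, 4 and 4 loci had fewer members than reported, in the same order, and 0, 3, 2, 0 and 1 had more. The number of members per gene thus depends on the setting. No paired analysis was possible because the peak lists hold 1 value for a whole treatment, and the libraries of single animals were not analysed here.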

Other observations

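Of the 66 member loci without any Aroclor1260 or control peak, with either reference, the following were picked after their values were seen and form no list. Zfp148 had 7.81 as the lower of its PCB126 and combination folds, and Zfp1 had 6.25. Gdf6 and Gdf10, genes of secreted ligands of the transforming growth factor family, had 5.00 and 2.85. Fzd4, a Wnt receptor gene, had 4.33, the adaptor gene Gab1 4.17 on the minus strand and the kinase gene Abl1 3.70 with 3 members. Angptl2, a secreted glycoprotein gene, had 3.50, and Aldh2, the mitochondrial acetaldehyde dehydrogenase, had 2.31. These are single values of whole treatments with no replicate error.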
